A study of Homo sapiens with 60 samples.

Results

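The comparison described here is of HepG2 cells after 24 h in a water extract of Panax Ginseng at 500 µg/mL and of the same cells in the same extract at 20 µg/mL. HepG2 is an established human line from a hepatocellular carcinoma that keeps many secretory and metabolic functions of liver cells. The comparison rests on 6 of the 60 RNA-seq libraries of the study, 3 at each dose, chosen by the treatment written in their labels and not by any measured value. Another 3 libraries, of ginseng at 100 µg/mL, were used to see whether the middle dose falls between the outer ones. They are not in the contrast, but like the rest of the 60 they entered the filter, scaling and estimate of spread. The study also treated HepG2 with water extracts of Poria Cocos, Atractylodis Rhizoma, Glycyrrhizae Radix (licorice root), Angelicae Gigantis Radix and Paeoniae Radix (peony root) at the same 3 doses, with wortmannin at 10 µM and with a DMSO vehicle, 3 libraries each. The extracts were made in hot water under reflux, and the labels name no DMSO for the extract groups. The vehicle is given as 0.1% DMSO in the sample labels and as 2% in the series text, so that a difference between any extract and vehicle cannot be told apart from a difference in solvent. For that reason the 2 ginseng doses were compared with each other, and the vehicle is given only as a level. Nothing in the labels ties replicates to cultures of their own, so the spread between the libraries of a group may be technical. The p-values rest on that spread pooled over the groups of all 60 libraries, not on the 6 alone.

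Of the 24 genes that changed, 5 are on a list of hepcidin and BMP targets, chosen with earlier results of these data known. The pathway has a well-known role in liver, and these 5 genes are described first. Bone morphogenetic proteins (BMPs) bind receptor kinases at the cell surface, which phosphorylate SMAD proteins that enter the nucleus and switch on target genes. In hepatocytes the pathway sets the output of HAMP, the gene of hepcidin, the hormone that lowers iron in blood by removing the iron exporter ferroportin from cell membranes. The ID genes (inhibitors of DNA binding) and the inhibitory SMADs are general targets of the same pathway, and HAMP also answers to interleukin 6 through STAT3.

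Genes were compared in CPM (counts scaled to a common library size with TMM factors), with a call made at an adjusted p under 0.05 in edgeR's quasi-likelihood test over 16093 genes. At 500 against 20 µg/mL 24 genes were called, 0.149% of those tested. Of these, 20 were lower at 500 µg/mL (0.124%) and 4 were higher (0.0249%). Only 4 of the 24, HAMP, ID3, ID1 and LCN15, changed by at least 1.5-fold. With no regard to the test, all 3 libraries at 500 µg/mL lay below all 3 at 20 µg/mL for 5.87% of the genes tested and above for 4.66%. The count of calls was 9 without the 500 µg/mL replicate 1, 12 without the 500 µg/mL replicate 3, and 11, 10 and 8 without the 20 µg/mL replicates 1, 2 and 3. The calls of ID3, HAMP, ID1, ID2, SEMA3B and ACSS2 held in all 15 alternative analyses, and those of the other 18 genes were lost without at least 1 library. None of the 24 changed sign in any of them.

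**Figure D1:**
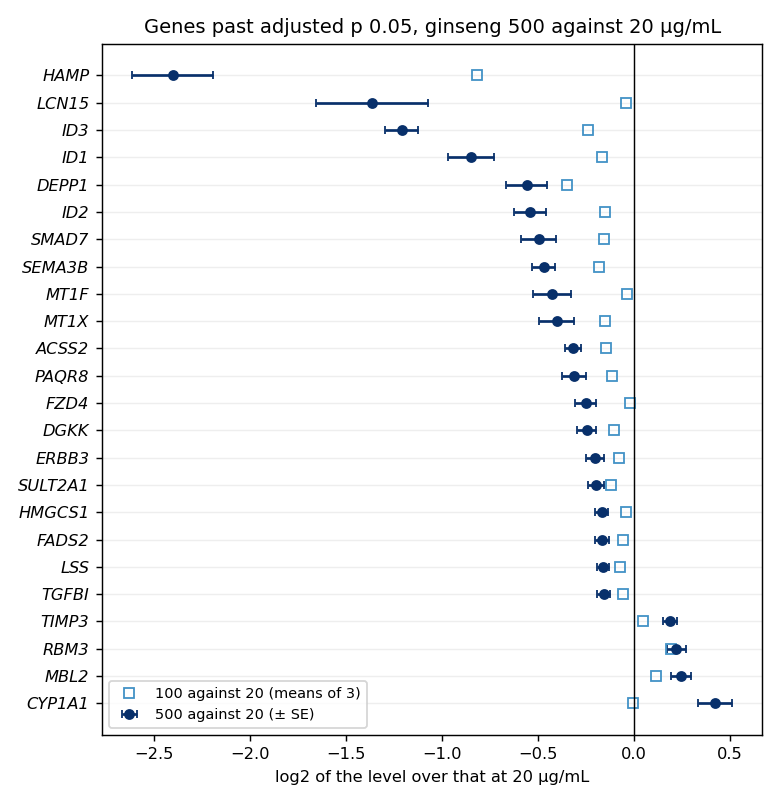
The horizontal axis is the log2 of the level over that at 20 µg/mL, with 1 row for each of the 24 called genes. Filled points are 500 against 20 µg/mL with the SE of the edgeR fit and open squares are the means at 100 against 20 µg/mL; HAMP, LCN15, ID3 and ID1 lie farthest from 0, and 23 of the 24 squares lie between 0 and the point of their gene.

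To show the DNA next to these measurements, the 250 bases before the RefSeq start site (GRCh38.p14) are printed for HAMP and ID3, the BMP targets with the largest falls, and for MT1X, a called metallothionein. Capitals in HAMP mark a GGCGCC, the core of the GC-rich BMP-SMAD element, and TTCTTGGAA, the STAT site of hepcidin. Capitals in MT1X mark TGCNCNC (N is any base), a looser form of the core of the metal response element. ID3 has no capitals, since GGCGCC is not in its window on either strand.
HAMP: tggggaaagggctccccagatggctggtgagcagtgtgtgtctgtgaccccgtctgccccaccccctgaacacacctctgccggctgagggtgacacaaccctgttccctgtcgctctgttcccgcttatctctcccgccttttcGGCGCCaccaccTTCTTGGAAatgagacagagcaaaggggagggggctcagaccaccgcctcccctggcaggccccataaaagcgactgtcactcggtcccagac
ID3: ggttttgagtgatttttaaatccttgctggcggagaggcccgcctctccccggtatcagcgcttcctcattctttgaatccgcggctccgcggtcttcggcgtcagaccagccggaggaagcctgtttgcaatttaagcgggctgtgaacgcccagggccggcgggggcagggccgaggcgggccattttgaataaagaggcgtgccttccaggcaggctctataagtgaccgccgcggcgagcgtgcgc
MT1X: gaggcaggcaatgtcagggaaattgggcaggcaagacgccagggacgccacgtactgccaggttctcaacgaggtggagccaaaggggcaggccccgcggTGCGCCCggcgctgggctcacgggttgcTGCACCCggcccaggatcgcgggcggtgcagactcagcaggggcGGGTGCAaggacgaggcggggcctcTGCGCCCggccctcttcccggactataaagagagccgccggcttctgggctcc
The windows are chr19:35282278-35282527 (plus strand) for HAMP, chr1:23559502-23559751 (minus strand) for ID3 and chr16:56682220-56682469 (plus strand) for MT1X. In HAMP the GGCGCC covers bases 105 to 100 before the start and the STAT site bases 93 to 85. Of 27305 RefSeq promoters of this length, 16.1% hold GGCGCC, 0.326% hold TTCTTGGAA and 48.4% hold TGCNCNC, each searched on both strands. Among the 11109 that belong to genes tested here the shares are 25.2%, 0.27% and 56.0%. Of the 24 called genes 21 had a promoter in that table. Among these, GGCGCC was in 3 (HAMP, HMGCS1 and TGFBI), TTCTTGGAA in HAMP alone, and TGCNCNC in 15. In MT1X the TGCNCNC letters occur 4 times. A match of letters is a description of the sequence and says nothing of binding in these cells.

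The hepcidin and BMP list held 13 genes, of which 10 had enough counts to be tested (ID4, ATOH8 and HJV did not). Of the 10, 5 were called lower at 500 µg/mL and none higher, beside 0.124% and 0.0249% of all genes tested. Since the list was chosen with earlier results of these data known, its counts are a description only. In 6 of the 10, all 500 µg/mL libraries lay below all 20 µg/mL libraries, against 5.87% of all genes tested. The median of the log2 differences over the 10 was -0.42, beside -0.002 over all genes. Without the 500 µg/mL replicate 1 the count was again 6 of 10, with 10.5% of all genes tested.

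HAMP (chr19:35280716-35285143, plus strand) was read at 0.694, 1.34 and 0.912 CPM in the 500 µg/mL libraries, from 18, 35 and 23 counts. At 20 µg/mL it was 5.18, 5.26 and 5.21 CPM, and at 100 µg/mL 2.27, 3.28 and 3.33 CPM. The 3 doses do not overlap, and the vehicle libraries (6.90, 7.05 and 7.23 CPM) lie above them all. Hepcidin mRNA fell 5.29-fold from 20 to 500 µg/mL (log2 difference -2.40 ± 0.21 SE, edgeR adjusted p = 2.6e-11, n = 3 against 3). The level was low at every dose, so these values rest on few counts.

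ID3 (chr1:23557918-23559794, minus strand) encodes a protein that pairs with basic helix-loop-helix factors and keeps them off DNA. Its level was 8.32, 8.56 and 7.62 CPM at 500 µg/mL and 19.2, 18.4 and 19.0 CPM at 20 µg/mL. Every library at the high dose read under 9 CPM and every library at the low dose above 18 CPM. The fall was 2.31-fold (log2 difference -1.21 ± 0.087 SE, edgeR adjusted p = 2.92e-14), and ID3 had the smallest adjusted p of the 24. At 100 µg/mL it read 14.7, 16.5 and 16.9 CPM, still well above the 500 µg/mL libraries.

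ID1 (chr20:31605283-31606515, plus strand), the family member most often used as a readout of BMP signalling, had the values 76.1, 85.5 and 82.9 CPM at 500 µg/mL. At 20 µg/mL it had 149, 145 and 145 CPM. It fell 1.80-fold (log2 difference -0.85 ± 0.12 SE, edgeR adjusted p = 2.22e-05). The vehicle libraries, at 114, 88.7 and 99.0 CPM, lie between the 2 doses: all 3 are above the 500 µg/mL libraries and below those at 20 µg/mL.

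ID2 (chr2:8678845-8684453, plus strand) read 64.5, 61.2 and 61.7 CPM at 500 µg/mL and 94.5, 89.6 and 88.2 CPM at 20 µg/mL. Its fall was 1.45-fold (log2 difference -0.54 ± 0.082 SE, edgeR adjusted p = 1.01e-04), with vehicle again in between at 72.7 ± 2.06 CPM (SD, n = 3). The 3 ID genes thus share non-overlapping doses and a mean at 20 µg/mL above that of vehicle.

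SMAD7 (chr18:48919853-48952052, minus strand) encodes an inhibitory SMAD that acts back on the receptors. It read 4.82, 4.93 and 4.92 CPM at 500 µg/mL and 7.15, 6.87 and 6.66 CPM at 20 µg/mL, a 1.41-fold fall (log2 difference -0.49 ± 0.093 SE, edgeR adjusted p = 0.00559). The call was narrowly lost without the 500 µg/mL replicate 1 (adjusted p = 0.0512) or the 20 µg/mL replicate 1 (adjusted p = 0.0503). SMAD6, the other inhibitory SMAD of the list, was at 3.44 CPM against 4.37 CPM with no overlap of libraries, and did not pass (adjusted p = 0.762). The remaining members lay closer to 0: BAMBI, a decoy receptor, at a log2 difference of -0.12, TMPRSS6, a protease that restrains the pathway, at -0.18, TFR2, an iron sensor, at -0.02, and SMAD9 at 0.00. None of these 4 passed the test.

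**Figure D2:**
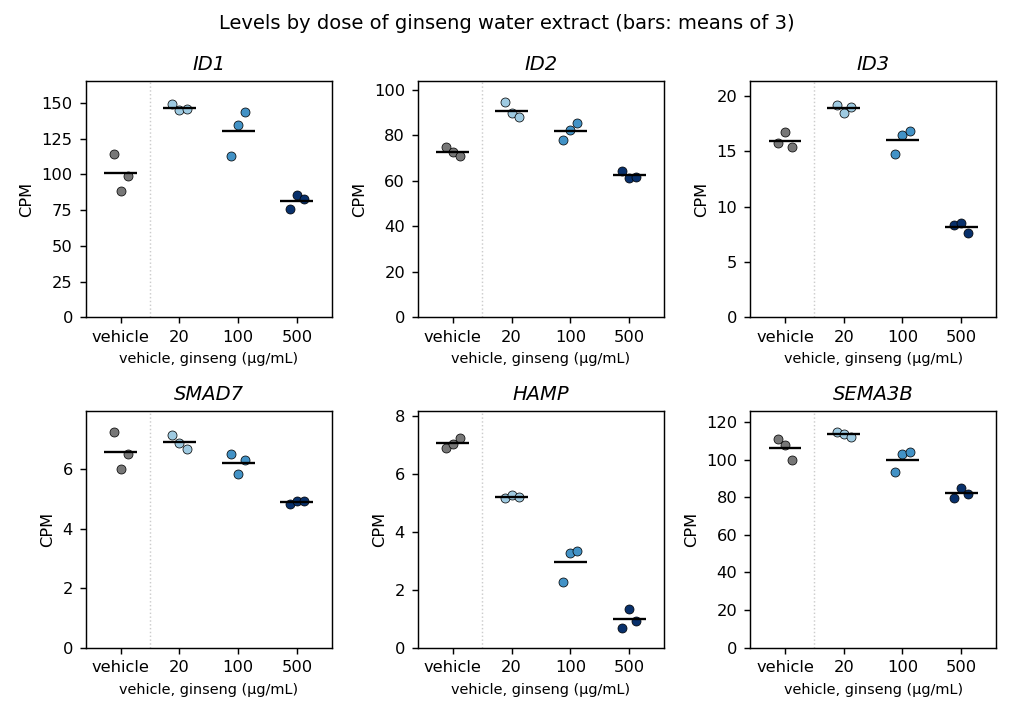
Each panel plots CPM (linear axis from 0) of 1 gene in the 3 libraries of vehicle and of ginseng at 20, 100 and 500 µg/mL, with bars at the means. In ID1, ID2, ID3, SMAD7, HAMP and SEMA3B all 500 µg/mL points lie below all 20 µg/mL points; ID1 falls from 146.6 to 81.5 CPM and HAMP from 5.22 to 0.981 CPM.

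The other route to HAMP, through interleukin 6, was followed in a list of 20 acute phase genes, of which 15 were tested. HAMP was its only called member. SOCS3, the feedback inhibitor that STAT3 induces, was at 0.258 CPM against 0.402 CPM, a low level that did not pass (adjusted p = 0.996). The secreted acute phase proteins HP, ORM1 and SERPINA3 had log2 differences of -0.06, 0.05 and 0.04, none past the threshold. Without regard to the test, 6 of the 15 lay wholly below and 1 wholly above, beside 5.87% and 4.66% of all genes tested, and the list's median was -0.06.

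SEMA3B (chr3:50267558-50277546, plus strand) encodes a secreted semaphorin, a class of guidance signals. It read 79.7, 84.8 and 81.6 CPM at 500 µg/mL and 115, 114 and 112 CPM at 20 µg/mL. It fell 1.38-fold (log2 difference -0.47 ± 0.059 SE, edgeR adjusted p = 1.37e-06), with vehicle at 106 ± 5.56 CPM (SD, n = 3).

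ACSS2 (chr20:34872146-34927962, plus strand) encodes the cytosolic enzyme that makes acetyl-CoA from acetate, a substrate of lipid synthesis. Its values were 149.6, 163 and 163 CPM at 500 µg/mL and 202, 195 and 194 CPM at 20 µg/mL. The level fell by 19.6% (log2 difference -0.32 ± 0.040 SE, edgeR adjusted p = 1.77e-06). ACSS2 is known as a target of the SREBP factors, which drive cholesterol and fatty acid synthesis when sterols are low, so the lists of those pathways were examined next.

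The cholesterol list held 24 SREBP2 targets, of which 23 were tested and INSIG1 was not. All 23 had a lower fitted level at 500 µg/mL, and in 18 of them the libraries did not overlap, beside 51% and 5.87% of all genes tested. The changes were small: the log2 differences ran from -0.20 to -0.04 with a median of -0.11, and 2 of the 23 passed the test. DESeq2 called 3 (DHCR7 besides those 2), and 15 had an unadjusted p under 0.05 in edgeR, beside 5.44% of all genes tested. HMGCS1, which makes the HMG-CoA that feeds the pathway, read 577, 586 and 572 CPM at 500 µg/mL and 668, 631 and 651 CPM at 20 µg/mL. It fell by 11.0% (log2 difference -0.17 ± 0.033 SE, edgeR adjusted p = 0.00911). LSS, the cyclase that forms lanosterol, read 256, 281 and 267 CPM against 295.5, 303 and 298 CPM and fell by 10.4% (log2 difference -0.16 ± 0.032 SE, edgeR adjusted p = 0.011). Both calls were lost without the 500 µg/mL replicate 1 (adjusted p = 0.0726 for HMGCS1 and 0.397 for LSS), the 500 µg/mL replicate 3 (0.0998 and 0.079) or the 20 µg/mL replicate 3 (0.0548 for both). HMGCS1 was also lost without the 20 µg/mL replicate 1 (adjusted p = 0.142), and LSS without the 20 µg/mL replicate 2 (adjusted p = 0.143). Among the uncalled members described here, DHCR7 came nearest to the threshold (log2 difference -0.18, adjusted p = 0.0649), followed by FDPS (-0.19, adjusted p = 0.144). The count of 18 of 23 was the same without the 500 µg/mL replicate 1.

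Of 20 genes of fatty acid and triglyceride synthesis 18 were tested, with a lower fitted level at 500 µg/mL in 15 (51% of all genes tested) and a median log2 difference of -0.09. Here 7 of the 18 had no overlap of libraries in the downward direction and 1, DGAT1, in the upward one, beside 5.87% and 4.66% of all genes tested. FADS2, the delta-6 desaturase of polyunsaturated fatty acids, was the only member called in edgeR. It read 298, 316 and 303 CPM at 500 µg/mL and 337, 342 and 352 CPM at 20 µg/mL, a fall of 10.9% (log2 difference -0.17 ± 0.037 SE, edgeR adjusted p = 0.0329). It passed without the 500 µg/mL replicate 2 and in none of the other 5 fits that leave out a library (adjusted p = 0.439 and 0.238 without the 500 µg/mL replicates 1 and 3, and 0.0612, 0.143 and 0.253 without the 20 µg/mL replicates 1, 2 and 3). SCD, the stearoyl-CoA desaturase, was at 2752 CPM against 3084 CPM with no overlap of libraries (log2 difference -0.16). It missed the threshold in edgeR (adjusted p = 0.0649) and was called by DESeq2, as was FADS2. FASN, the fatty acid synthase, and SREBF1 had log2 differences of -0.09 and -0.05 and did not pass. LXR targets, which export cholesterol, had no called member among 9 in edgeR or DESeq2, and their median was -0.03. In edgeR 3 of the 9 had an unadjusted p under 0.05, all lower at 500 µg/mL (33.3% beside 5.44% of all genes tested). Libraries did not overlap in 3 of the 9 downward and 1 upward, beside 5.87% and 4.66% of all genes. ABCA1 was level at 127 ± 7.40 CPM against 126 ± 6.15 CPM (SD, n = 3).

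Metallothioneins are small cysteine-rich proteins that bind zinc and copper and are induced by metals. Of 12 genes of the list 11 were tested, 9 had a lower fitted level (51% of all genes tested) and 2 were called lower (0.124% of all genes tested). In 7 of the 11 all 500 µg/mL libraries lay below all 20 µg/mL libraries (5.87% of all genes). In edgeR 7 of the 11 had an unadjusted p under 0.05, all lower (63.6% beside 5.44% of all genes tested). The median log2 difference was -0.40. MT1X (chr16:56682424-56684196, plus strand), whose promoter is printed above, read 37.2, 37.8 and 34.1 CPM at 500 µg/mL and 47.5, 49.4 and 47.0 CPM at 20 µg/mL. It fell 1.32-fold (log2 difference -0.40 ± 0.091 SE, edgeR adjusted p = 0.0437). MT1F read 36.8, 39.1 and 32.9 CPM against 50.9, 50.7 and 44.6 CPM and fell 1.34-fold (log2 difference -0.42 ± 0.098 SE, edgeR adjusted p = 0.0461). MT1G, MT2A and MT1E had log2 differences of -0.54, -0.51 and -0.45 and did not pass in edgeR (adjusted p = 0.0543, 0.0698 and 0.129), while DESeq2 called MT2A besides MT1X and MT1F. The zinc exporter SLC30A1, another metal-induced gene, differed by -0.09, and MTF1, the metal-sensing factor itself, by 0.14, neither past the threshold. The call of MT1X was lost in each of the 6 fits that leave out a library, with adjusted p = 0.18, 0.0682 and 0.365 without the 500 µg/mL replicates 1 to 3, 0.153 and 0.34 without the 20 µg/mL replicates 1 and 2, and a value between these without the 20 µg/mL replicate 3. MT1F was lost in 5 of them, with adjusted p = 0.239 and 0.485 without the 500 µg/mL replicates 1 and 3 and 0.259, 0.34 and 0.0548 without the 20 µg/mL replicates 1 to 3. The MT1 genes are near-identical neighbours on chromosome 16 between which RSEM divides shared reads, so they are not independent of each other.

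**Figure D3:**
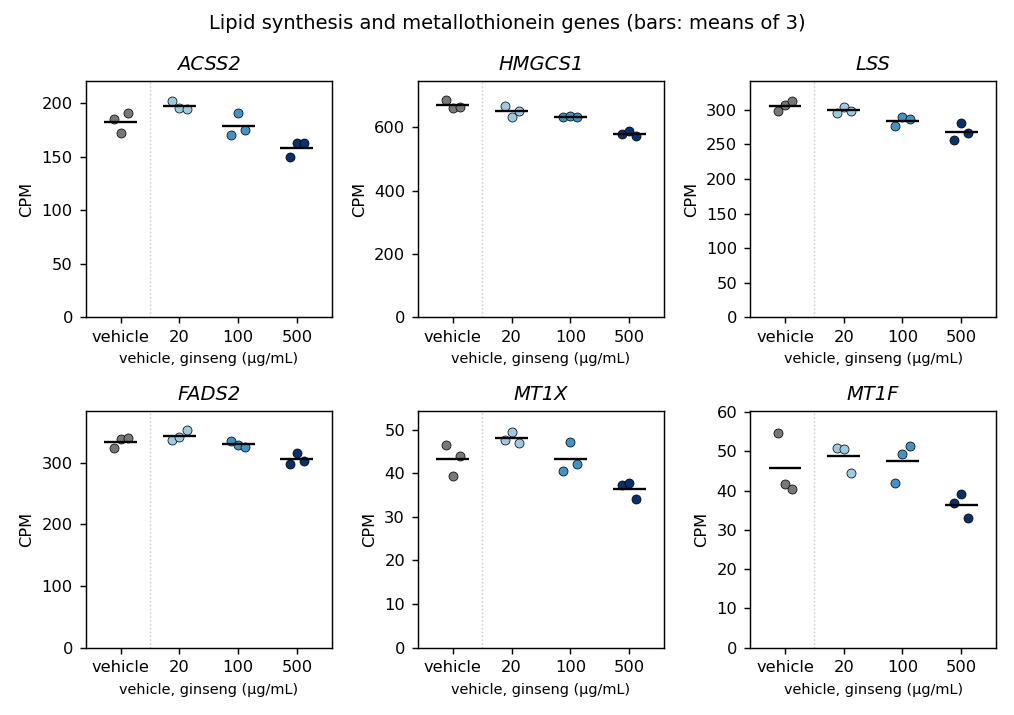
Each panel plots CPM (linear axis from 0) in the 3 libraries of vehicle and of ginseng at 20, 100 and 500 µg/mL, with bars at the means, for ACSS2, HMGCS1, LSS, FADS2, MT1X and MT1F. The 500 µg/mL points lie below the 20 µg/mL points in every panel, by 10.4% in LSS and 25.5% in MT1F.

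The 4 genes that rose were CYP1A1, MBL2, RBM3 and TIMP3. CYP1A1 (chr15:74719542-74725610, minus strand), the classical target of the aryl hydrocarbon receptor, read 16.1, 18.3 and 16.1 CPM at 500 µg/mL and 12.9, 13.6 and 11.2 CPM at 20 µg/mL. It rose 1.34-fold (log2 difference 0.43 ± 0.089 SE, edgeR adjusted p = 0.0176). At 100 µg/mL its mean was 12.5 ± 0.982 CPM (SD, n = 3), level with 20 µg/mL and with vehicle at 12.7 ± 1.14 CPM. No other of the 11 tested aryl hydrocarbon receptor targets passed. TIPARP differed by -0.05, and CYP1B1 and AHRR were under 1 CPM. NQO1 was at 458 ± 16.6 CPM against 431 ± 8.94 CPM, with no overlap of libraries (adjusted p = 0.936). Without regard to the test, 3 of the 11 lay wholly above and 0 wholly below, beside 4.66% and 5.87% of all genes tested. In edgeR 2 of the 11 had an unadjusted p under 0.05, both higher at 500 µg/mL (18.2% beside 5.44% of all genes tested). The CYP1A1 call was lost without the 500 µg/mL replicate 2 (adjusted p = 0.157), the 20 µg/mL replicate 1 (0.0612) or the 20 µg/mL replicate 3 (0.269).

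MBL2, the mannose-binding lectin that the liver secretes, read 37.0, 32.9 and 32.7 CPM at 500 µg/mL and 29.4, 28.2 and 28.7 CPM at 20 µg/mL, a rise of 18.8% (edgeR adjusted p = 0.0176). RBM3, an RNA-binding protein induced by mild cold, rose by 16.7% (edgeR adjusted p = 0.0383), from 109, 106 and 114 CPM to 127, 125 and 132 CPM. It is the one rise whose 500 µg/mL libraries do not lie above vehicle, which was at 142 ± 7.15 CPM (SD, n = 3). TIMP3, an inhibitor of matrix metalloproteinases, rose by 14.0% (edgeR adjusted p = 0.00864), from 290.3, 316 and 302 CPM to 351, 343 and 341 CPM. GSTA2 and ACTA1, the next genes in order of p among the rises, did not pass in edgeR (log2 differences 0.33 and 0.46, adjusted p = 0.106 for both). GSTA2 passed with DESeq2 (0.0492), with no filter (0.00396) and with the replicate block (0.0387), and ACTA1 with no filter (0.0245). Without the 500 µg/mL replicate 1, MBL2, RBM3 and TIMP3 missed the threshold (adjusted p = 0.524, 0.172 and 0.106), as they did without the 20 µg/mL replicate 1 (0.0503, 0.172 and 0.153) and the 20 µg/mL replicate 3 (0.101, 0.0548 and 0.0548). MBL2 and RBM3 also missed it without the 20 µg/mL replicate 2 (0.201 and 0.36), and RBM3 without the 500 µg/mL replicate 3 (0.331).

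DEPP1, a target of FOXO factors, which insulin signalling keeps out of the nucleus, fell 1.47-fold, from 18.8, 22.3 and 18.8 CPM to 14.0, 13.5 and 13.1 CPM (edgeR adjusted p = 0.00608). The vehicle libraries, at 11.4, 12.1 and 14.6 CPM, overlap those at 500 µg/mL and lie below those at 20 µg/mL. The call was lost without the 500 µg/mL replicate 3 (adjusted p = 0.0568) or the 20 µg/mL replicate 2 (0.159). DEPP1 was the only one of 24 FOXO and gluconeogenesis targets that passed in edgeR (0.149% of all genes tested passed), and DESeq2 called G6PC1 besides. In edgeR 3 of the 24 had an unadjusted p under 0.05, all lower at 500 µg/mL (12.5% beside 5.44% of all genes tested). Libraries did not overlap in 5 of the 24 downward and 0 upward, beside 5.87% and 4.66% of all genes tested. IGFBP1, a binding protein of insulin-like growth factors, was read at 184, 247 and 191 CPM at 500 µg/mL and at 313, 335 and 310.5 CPM at 20 µg/mL. Its libraries do not overlap, and its log2 difference of -0.62 ± 0.17 SE did not pass in edgeR over all 60 libraries (adjusted p = 0.157). It passed with only the 6 libraries (0.0014), with the replicate number as a block (2.43e-07) and with no filter on low counts (3.37e-31). In vehicle IGFBP1 was at 129 ± 18.2 CPM (SD, n = 3), with all 3 libraries below those of both doses. G6PC1, the glucose-6-phosphatase that releases glucose from liver cells, was at 11.8 ± 1.36 CPM against 15.9 ± 0.802 CPM (SD, n = 3) and missed the threshold in edgeR (log2 difference -0.42, adjusted p = 0.0648). It passed with DESeq2 (0.0158), with no filter (8.36e-05), with the block (0.0101) and without the 500 µg/mL replicate 2 (0.0279). Its vehicle level was 18.4 ± 2.31 CPM (SD, n = 3), above both doses. PCK1, the other classical gluconeogenic gene, differed by 0.08, and TXNIP by 0.04, neither past the threshold.

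The other falls named by the rule were of modest size. PAQR8, a membrane progesterone receptor, fell by 19.4% (edgeR adjusted p = 0.0109), FZD4, a Wnt receptor, by 15.9% (0.0403), and SULT2A1, the hydroxysteroid sulfotransferase and the only called member of 12 PXR and CAR targets, by 12.7% (0.0353). Another 4 called genes fall outside the rule for named genes and were singled out after their values were seen. These were LCN15, at 0.438 CPM against 1.13 CPM (adjusted p = 0.0252), DGKK, a diacylglycerol kinase (log2 difference -0.24, adjusted p = 0.0176), TGFBI, a secreted matrix protein first found as a TGF-beta target (-0.16, adjusted p = 0.0403), and ERBB3, a receptor of neuregulins (-0.20, adjusted p = 0.0412). LCN15 rests on 7, 18 and 9 counts at 500 µg/mL. Without the 500 µg/mL replicate 1 the calls of PAQR8, FZD4, SULT2A1, LCN15, TGFBI and ERBB3 were lost (adjusted p = 0.18, 0.172, 0.856, 0.479, 0.471 and 0.552), and without the 20 µg/mL replicate 3 those of all 7 (0.101, 0.0548, 0.0976, 0.16, 0.101 and 0.16, and 0.163 for DGKK). Without the 20 µg/mL replicate 2 all 7 were lost as well, with adjusted p from 0.0594 for DGKK to 0.566 for ERBB3. Without the 20 µg/mL replicate 1 FZD4, SULT2A1, LCN15, DGKK and TGFBI missed the threshold (0.172, 0.11, 0.0672, 0.0659 and 0.153), without the 500 µg/mL replicate 3 FZD4, LCN15, DGKK, TGFBI and ERBB3 (0.267, 0.263, 0.263, 0.18 and 0.152), and without the 500 µg/mL replicate 2 FZD4 and TGFBI (0.106 and 0.0682).

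**Figure D4:**
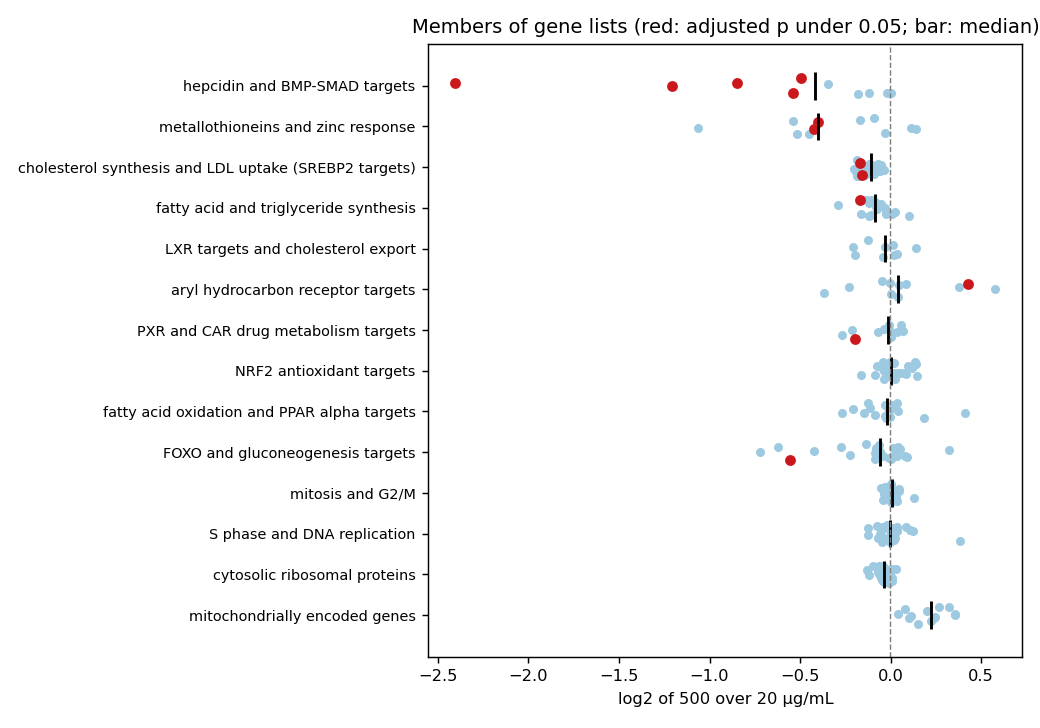
Each point is 1 tested gene of a list, placed at its log2 difference of 500 over 20 µg/mL, with red for an adjusted p under 0.05 and a bar at the list's median. The medians of the BMP and metallothionein lists are at -0.42 and -0.40 and that of the cholesterol list at -0.11, while the cell cycle and NRF2 lists sit at about 0.

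Most of the other listed programmes held no called gene. Of 25 tested NRF2 targets, which make up the antioxidant response, none passed in edgeR or DESeq2, and the list's median was 0.00. In edgeR 3 of the 25 had an unadjusted p under 0.05, all higher at the high dose (12% beside 5.44% of all genes tested). Libraries did not overlap in 5 of the 25 upward and 1 downward, beside 4.66% and 5.87% of all genes tested. AKR1B10, among the most inducible NRF2 targets in liver cells, was at 50.0 ± 3.73 CPM against 45.4 ± 2.92 CPM (SD, n = 3, adjusted p = 0.828). None of 32 mitosis genes, 33 S phase genes, 22 ATF4 targets, 23 ER chaperone genes or 26 p53 targets passed in edgeR, with medians from -0.04 to 0.01. At an unadjusted p under 0.05 edgeR counted 4 S phase genes (12.1%), 2 ATF4 targets (9.09%) and 0 in the other 3 lists, beside 5.44% of all genes tested. DESeq2 called 1 gene of the 5 lists, MCM3, an S phase gene. CDKN1A, the cell cycle inhibitor that p53 induces, was at 115 ± 4.47 CPM against 121 ± 0.654 CPM. CYP3A4, the main drug-metabolising enzyme of adult liver, was at 0.324 CPM against 0.395 CPM, and a difference was not detectable at this depth. None of 24 secreted and metabolic hepatocyte genes passed in edgeR or DESeq2. In edgeR 4 of the 24 had an unadjusted p under 0.05, 2 lower and 2 higher (16.7% beside 5.44% of all genes tested). Their libraries did not overlap in 4 of the 24 downward and 4 upward, beside 5.87% and 4.66% of all genes tested. Of 44 cytosolic ribosomal protein genes 40 had a lower fitted level, with a median of -0.04 over the list, and none passed in edgeR or DESeq2 or had an unadjusted p under 0.05. On simulated counts with the same library sizes, the same fit called 42 of the 70 genes given a 1.2-fold change. It called 69 of the 70 given a 1.5-fold change. The simulation made 183 calls in all, beside 24 here, so its cutoff on unadjusted p was looser. These shares may therefore be too high for these data, and smaller changes in these lists would often go uncalled.

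The libraries were of similar depth, with 24.5 M to 27.4 M counts over the 9 ginseng libraries, so that 3 counts stood for 0.109 to 0.122 CPM. The 500 µg/mL replicate 1 stood apart from its group in the share of counts from the 13 mitochondrially encoded genes, at 11.9% against 9.41% and 9.50%, beside 8.44%, 9.36% and 9.20% at 20 µg/mL. The 100 µg/mL replicate 1 was similar, at 11.6%. The difference between the doses was 10.3% ± 1.44 against 9.0% ± 0.496 (SD, n = 3; exact permutation test, two-sided, p = 0.1, the smallest p that 3 against 3 can give). All 13 genes of the list of mitochondrially encoded genes had a higher fitted level at 500 µg/mL, with a median log2 difference of 0.22. None of them passed in edgeR or DESeq2 (3 at an unadjusted p under 0.05 in edgeR). Without the 500 µg/mL replicate 1 that median was 0.06. The part of the mitochondrial share in the calls was not tested, but with mitochondrially encoded genes left out of the library sizes 28 genes were called. Markers of HepG2 (10 of 10 tested) summed to 67880 to 71190 CPM at 500 µg/mL and 71460 to 71670 CPM at 20 µg/mL. Of the blood cell markers, PTPRC, CD3E and MS4A1 were at 0 in all 6 libraries, which allows a level of up to that of 3 counts, and the sum of 1434 to 1885 CPM against 1654 to 1713 CPM was nearly all LYZ (mean 1641 CPM). Of the fibroblast markers, DCN, FAP and POSTN were at 0, and the sum (66.5 to 72.6 CPM against 68.6 to 73.6 CPM) was nearly all ACTA2 (mean 70.6 CPM). Epithelial markers of lung and breast summed to under 1 CPM, with NKX2-1, SFTPC, KRT5 and KRT14 at 0. Fewer cells expressing a gene and less RNA per cell cannot be told apart in bulk libraries.

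The 100 µg/mL libraries were then set beside the outer doses. Their means took no part in the contrast, though they shared in its filter, scaling and estimate of spread. In 23 of the 24 called genes (95.8%) the mean at 100 µg/mL lay between those at 20 and 500 µg/mL. The share was 36.9% over all genes tested, most of which have outer means close together, so it is no measure of what genes with separated outer doses would give by themselves. Libraries at 100 and 500 µg/mL with the same number also deviated together for replicates 1 and 2 (r = 0.574 and 0.527 across 9330 genes) and not for replicate 3 (r = -0.109). The called gene whose 100 µg/mL mean did not lie in between was CYP1A1. In 21 of the 24 the step from 100 to 500 µg/mL was larger on the log2 scale than that from 20 to 100 µg/mL, and the median share of the change reached at 100 µg/mL was 35.2%. ID1 stepped by -0.17 and then by -0.68, ID3 by -0.24 and then -0.97, HAMP by -0.82 and then -1.59. DEPP1 was of the other kind, with -0.35 to 100 µg/mL and -0.21 beyond, as was RBM3, with 0.19 and then 0.03.

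The doses of the other 5 extracts give separate libraries in which the same 24 genes could be read. Called in the same direction at 500 against 20 µg/mL were 22 of the 24 for poria, 21 for angelica, 19 for peony, 15 for licorice and 3 for atractylodes. The shares of all genes called in either direction were 43.5%, 1.22%, 3.49%, 21.3% and 0.0497%. The 24 include 18 genes that were called in the ginseng direction in all of poria, angelica and peony. HAMP differed by -3.01, -2.88 and -3.77 on the log2 scale in poria, angelica and peony, ID3 by -0.79, -1.26 and -2.14, and ID1 by -0.72, -1.01 and -1.47. In atractylodes these 3 genes were at 0.09, 0.11 and 0.03 and did not pass.

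Licorice went the other way for part of the BMP genes. HAMP rose there by 0.92 ± 0.15 SE (edgeR adjusted p = 5.06e-06) and ID3 by 0.22 ± 0.076 SE (adjusted p = 0.0306), while ID1 was at 0.11 and did not pass. The difference between the ginseng and licorice dose effects was itself tested, and 1415 genes (8.79%) and 14 of the 24 passed. It was -3.33 ± 0.26 SE for HAMP, -1.43 ± 0.12 SE for ID3 and -0.96 ± 0.17 SE for ID1 (edgeR adjusted p = 4.18e-14, 1.06e-13 and 4.49e-05). For ID2, which fell in both extracts (-0.54 and -0.32), it did not pass (-0.22 ± 0.12 SE, adjusted p = 0.279). HMGCS1 and LSS fell further in licorice (-0.64 and -0.55) than in ginseng, with differences of 0.47 and 0.39 (adjusted p = 5.69e-11 and 3.75e-09). CYP1A1 rose 35.8-fold in licorice against 1.34-fold in ginseng, a difference of -4.73 ± 0.12 SE (adjusted p = 8.24e-35).

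Against the mean dose effect of the other 5 extracts, 406 genes (2.52%) and 6 of the 24 differed. ID3 fell further in ginseng than that mean, by -0.44 ± 0.096 SE (edgeR adjusted p = 0.00381). HAMP (-0.67 ± 0.25 SE), ID1 (-0.24 ± 0.13 SE) and ID2 (-0.10 ± 0.090 SE) did not differ from it past the threshold (adjusted p = 0.183, 0.497 and 0.746). MT1F fell less than the mean, by a difference of 0.68 ± 0.11 SE (adjusted p = 3.29e-05), and CYP1A1 rose less, by -1.63 ± 0.097 SE (adjusted p = 1.18e-17). The count of 406 was 269 without the ginseng 20 µg/mL replicate 1 and 270 without the ginseng 500 µg/mL replicate 3.

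**Figure D5:**
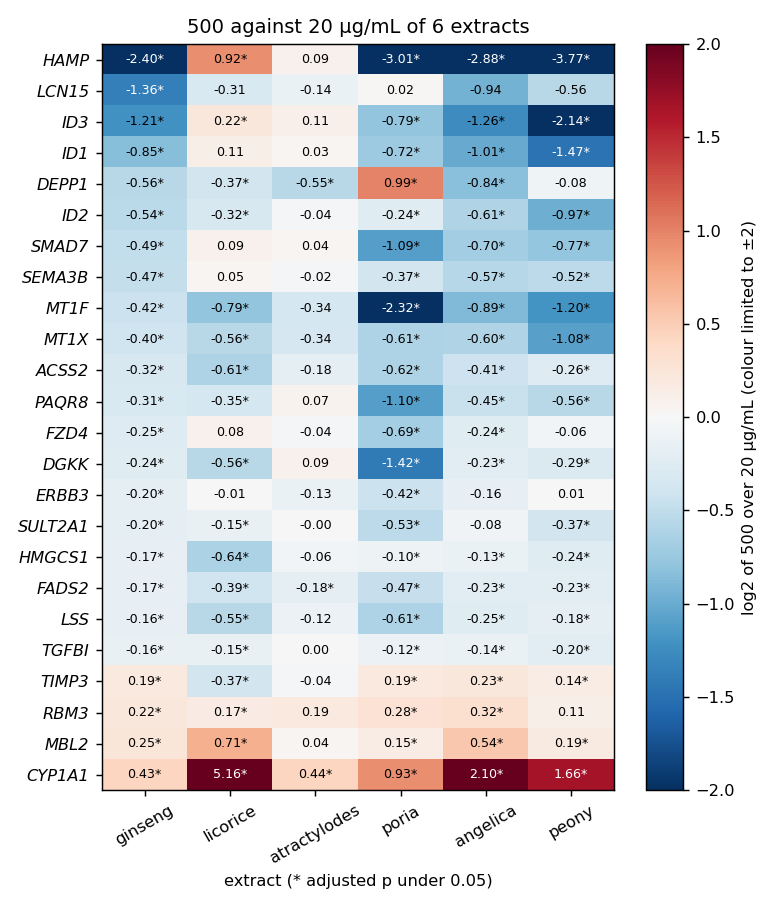
Rows are the 24 genes called for ginseng, columns the 6 extracts, and each cell gives the log2 of 500 over 20 µg/mL in number and colour (blue lower, red higher, colour limited to 2 either way, asterisk for an adjusted p under 0.05). HAMP is at -2.40 in ginseng, -3.77 in peony, 0.09 in atractylodes and 0.92 in licorice.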

How the data were processed

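RNA of HepG2 cells was sequenced after 24 h as directional, paired-end libraries with reads of 100 bases, per the labels' protocols. FastQC 0.11.9, Trim Galore 0.6.5, STAR 2.7.3a, RSEM 1.3.3 and the build hg38 (GRCh38) are named, per the submitters' processing notes. Values in the deposited table are expected counts of genes from RSEM; the annotation release is not given in the sources used here. Of its 270 columns, 60 were matched to samples by the column name in their descriptions, and 210 were not used here. Values were rounded to whole counts (76.1% of those above 0 were whole within 1e-06). Symbols (41350 of 60675 genes) and coordinates came from GENCODE 29 and a table of gene names, matched by Ensembl identifier; genes without a symbol hold 0.765% of the counts.

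All 60 libraries (20.9 M to 33.4 M counts) entered 1 edgeR model (version 4.0.16, under R 4.3.3) in which each group had its own mean. Library sizes were scaled by TMM (0.926 to 1.03), and filterByExpr removed low genes (minimum count 10, minimum total 15). Contrasts used glmQLFTest with 40 residual degrees of freedom, a prior of 8.17, a prior count of 0.125 and Benjamini-Hochberg adjustment over all 16093 genes at 0.05. SE is the log2 difference over the root of F. The edgeR script was tested on simulated data: it called 42 of the 70 genes given a 1.2-fold change, 69 of the 70 at 1.5-fold and 60 of the 60 at 2-fold, with 12 false calls among 183.

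The rule for named genes took up to 12 rises and 12 falls of largest fold among called genes with at least 5 CPM and no overlap between doses, added uncalled genes of smallest p where a direction held fewer than 6, took up to 4 called members of each of 35 gene lists, and added 12 genes whatever their value, some of which are not reported here. The members and lists were chosen with earlier results of these data known. Alternatives were DESeq2 1.42.0 (Wald test, or its size factors in edgeR), other filters, the replicate number as a block, only the 6 libraries, a regression on log dose and each library left out; leaving out mitochondrial genes, upper-quartile factors, and counts of list members without 1 library were added after the data were seen. No 2 ginseng libraries agreed within sampling noise. Floors of 3 counts cover counting error only.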

Additional observations from a re-analysis of the deposited data

Results flagged for a closer look

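The results here are the called genes whose dose effect of ginseng differed from that of another extract by a test of the difference itself, in log2 units with the SE of the edgeR fit and the adjusted p. Against licorice, the dose effect of ginseng was lower for the BMP targets ID3 (-1.43 ± 0.12, adjusted p = 1.06e-13), HAMP (-3.33 ± 0.26, 4.18e-14), ID1 (-0.96 ± 0.17, 4.49e-05) and SMAD7 (-0.58 ± 0.13, 0.00124). It was also lower for SEMA3B (-0.51 ± 0.083, 9.89e-06), FZD4 (-0.33 ± 0.079, 0.00325), MBL2 (-0.46 ± 0.072, 5.58e-06) and CYP1A1 (-4.73 ± 0.12, 8.24e-35). The difference was positive for the lipid synthesis genes ACSS2 (0.30 ± 0.057, 2.19e-04), HMGCS1 (0.47 ± 0.046, 5.69e-11), LSS (0.39 ± 0.045, 3.75e-09) and FADS2 (0.22 ± 0.052, 0.00225), all of which fell further in licorice. It was positive for DGKK (0.32 ± 0.073, 0.00211), which fell further in licorice, and for TIMP3 (0.56 ± 0.052, 9.96e-12), which fell in licorice and rose in ginseng.

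Against the mean of the other 5 extracts, the difference was -0.44 ± 0.096 for ID3 (adjusted p = 0.00381) and -1.63 ± 0.097 for CYP1A1 (1.18e-17). It was 0.16 ± 0.040 for TIMP3 (0.0163), 0.19 ± 0.035 for LSS (4.72e-04), 0.24 ± 0.056 for DGKK (0.00818) and 0.68 ± 0.11 for MT1F (3.29e-05). TIMP3 missed the threshold there without the ginseng 500 µg/mL replicate 1 (adjusted p = 0.0782) or the ginseng 20 µg/mL replicate 1 (0.15) or 3 (0.055), and DGKK without the ginseng 500 µg/mL replicate 1 (0.0543). No cause of any of these differences was tested.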

How the results depend on the processing

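The 24 calls of 500 against 20 µg/mL (4 higher, 20 lower) became 37 with the DESeq2 Wald test (6 and 31), 114 with no filter on low counts (56 and 58, 19 of the 24 among them) and 13 when all 9 libraries were regressed on the log of the dose (1 and 12). Leaving out 1 library gave 8 to 30 calls. With DESeq2 size factors, a minimum of 1 CPM, only the 6 libraries, mitochondrial genes left out or upper-quartile factors, the count was 21, 26, 17, 28 and 28. Of the 24 calls, 21, 24, 10, 24 and 24 were among these. The 13 calls of the regression held 8 of the 24. The count against licorice, 1415, stayed within 1089 to 1792 (1089 to 1304 with 1 library left out), and that against the mean of the other extracts, 406, ran from 269 to 422 with 1 library left out and reached 591 under the block below. The share of called genes with the 100 µg/mL mean in between was 91.7% to 95.8%. The cause of these shifts was not tested.

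With the replicate number as a block, 57 genes were called (8 higher, 49 lower), all 24 among them. The numbers were not taken as pairs: deviations of same-numbered 500 and 20 µg/mL libraries correlated at -0.0948, 0.00219 and -0.0248 over 9330 genes, and no 500 µg/mL library correlated best with the 20 µg/mL library of its number.

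CYP3A4 and ABCA1, neither of which passed in any of them, changed sign without the 500 µg/mL replicate 1 (log2 0.0658 and -0.0228) and without the 20 µg/mL replicate 1 (0.0746 and -0.0202); over all 6 libraries left out in turn they ran from -0.57 to 0.0746 and from -0.0228 to 0.0609. Depth limits HAMP, LCN15 and CYP3A4, with 35 counts or fewer in each 500 µg/mL library.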
